A study of Zea mays with 6 samples.

Results

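The loci described here are those of the maize (Zea mays) kernel transcriptome that were expressed at a moderate level in every wild-type library and stood at least 2 times higher in every library of the opaque11 (o11) mutant. They were chosen by 2 conditions on the deposited FPKM values (fragments scaled to transcript length and library size). The locus had to lie from 5 to under 500 FPKM in all 3 WT libraries, and its lowest o11 value had to be at least 2 times its highest WT value. Of the 32666 loci of the files, 12677 met the first condition, and 41 of these met both (0.323%). The same values that chose the 41 loci are therefore reported below as a description, and no test of o11 against WT is used to support them. By the rule itself, all 41 had at least 1 FPKM in 3 or more libraries and none had a value of 0. The mirror condition, a highest o11 value at most 1/2 of the lowest WT value, held for 47 loci.

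The 6 libraries came from kernels at 15 days after pollination, 3 from homozygous o11 mutants and 3 from the wild type (WT), and both groups carry the replicate numbers 1, 2 and 3. The series text calls the tissue endosperm and the sample labels call it kernel. The sources used here do not give the allele, the inbred background, the relation of mutant to wild-type plants or the number of ears behind a library, so the spread between libraries may be technical in part. Each locus is named by its position in the B73 RefGen_v3 build (chromosome, start and end), as the files write it. The files pair no locus with a gene name, so neither the tissue nor the mutated gene was checked by its transcripts, and no member is given a function. On the main axis of variation over all tested loci, which held 48.0% of the variance, both replicate 3 libraries stood apart from the other 4. Applied without them, the rule held for 76 loci. All 41 are among these by the rule itself, since fewer libraries make it easier to meet.

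The endosperm is the tissue of the cereal kernel that fills with starch and storage proteins and feeds the seedling. Opaque mutants of maize are named for kernels that do not transmit light, a sign of altered endosperm texture. O11 codes for an endosperm transcription factor of the basic helix-loop-helix family. FPKM corrects for transcript length and library size, so it allows loci to be set side by side within a library. It gives a share of the RNA pool and not an amount per cell. In bulk kernel RNA, more cells of a type and more RNA per cell cannot be told apart.

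Across the 12677 eligible loci the ratio of the lowest o11 to the highest WT value, called the separation ratio below, was mostly under 1. It was at least 1 and under 1.5 for 781 loci, from 1.5 to under 2 for 82, from 2 to under 3 for 34, from 3 to under 4 for 4, and 4 or more for 3. No gap in this distribution set the 41 loci apart. The 3 members nearest to the limit lay on chromosome 2 (175732182 to 175737110), chromosome 5 (38494016 to 38501637) and chromosome 10 (5225394 to 5228033), with ratios of 2.03, 2.04 and 2.06. The 3 loci just below it lay on chromosome 4 (57970814 to 57976241), chromosome 1 (34390691 to 34405176) and chromosome 2 (69321790 to 69333199), with ratios of 1.97, 1.96 and 1.96.

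**Figure D1:**
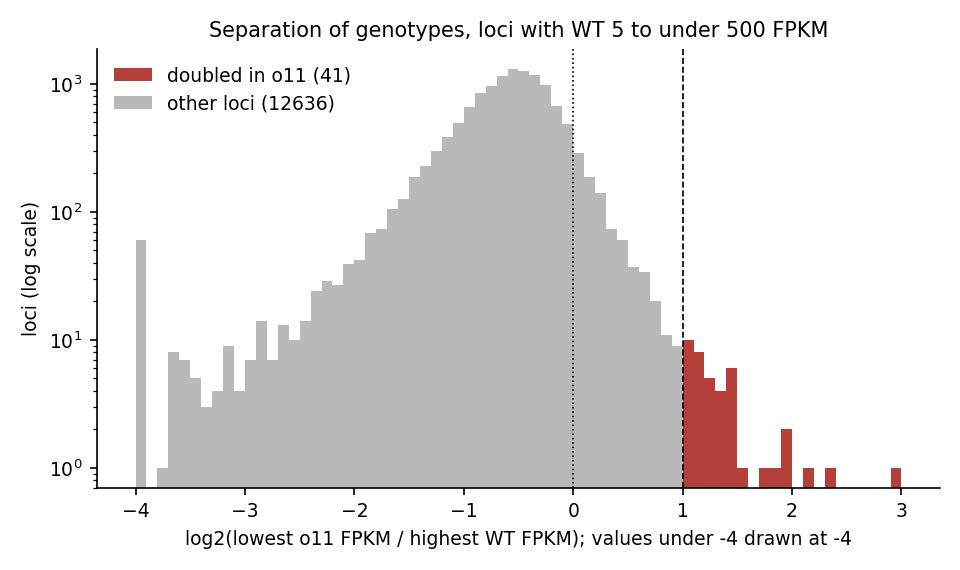
Histogram of the log2 separation ratio (lowest o11 over highest WT FPKM) for the 12677 loci with WT values from 5 to under 500 FPKM, with the number of loci on a log axis; the dashed line marks a ratio of 2 and the dotted line a ratio of 1. The 41 doubled loci (red) form its upper tail, up to a ratio of 7.53.

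The limits on the WT level also had loci next to them. The members lowest in WT were on chromosome 8 (3155821 to 3159848), with 13.5, 14.7 and 12.7 FPKM in o11 and 5.31, 5.24 and 5.18 FPKM in WT (replicates 1, 2 and 3, as in all lists of 3 values here), on chromosome 1 (262211596 to 262216386), with a lowest WT value of 5.42 FPKM, and on chromosome 5 (38494016 to 38501637), with 5.53 FPKM. Just below the limit was a locus on chromosome 4 (1299465 to 1300872), with 239.6, 296.1 and 149.1 FPKM in o11 against 16.9, 23.5 and 4.93 FPKM in WT. It missed the rule by WT replicate 3 alone, although its separation ratio of 6.34 was above that of all members but 1. The other 2 loci nearest below 5 FPKM were on chromosome 2 (37246833 to 37247510) and chromosome 4 (40732036 to 40733517), with lowest WT values of 4.97 and 4.76 FPKM and separation ratios of 2.09 and 2.29. At the upper end a single locus was kept out, on chromosome 4 (5083078 to 5084155), with 2177, 2160 and 1820 FPKM in o11 against 349, 375 and 642 FPKM in WT.

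The locus with the widest separation lay on chromosome 6 (34438652 to 34440618). It had 822, 1031 and 1217 FPKM in o11 libraries against 71.8, 109.2 and 95.3 FPKM in WT libraries. Its mean was 1024 ± 198 FPKM in o11 and 92.1 ± 18.9 FPKM in WT (SD, n = 3 each), an 11.1-fold difference, and its lowest o11 value was 7.53 times its highest WT value. It was also the most abundant of the 41 loci in o11, while in WT it ranked behind 2 others.

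A locus on chromosome 9 (117179607 to 117183243) came next by separation, at 65.0, 50.4 and 63.6 FPKM in o11 against 7.41, 6.30 and 9.90 FPKM in WT. Its fold was 7.58 by the means and smallest in replicate pair 3, as for 5 of the 41 members. A locus on chromosome 7 (10656436 to 10658172) had 83.4, 137.2 and 267.3 FPKM in o11 against 9.96, 19.1 and 19.3 FPKM in WT, 10.1-fold higher by the means. Here the o11 libraries differed widely among themselves, and the lowest of them was still 4.33 times the highest WT library.

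The 4 members with separation ratios between 3 and 4 were alike in scale, with o11 means from 30.3 to 67.2 FPKM. On chromosome 10 (132120549 to 132121962) the values were 61.4, 62.6 and 77.7 FPKM in o11 against 11.3, 15.6 and 16.1 FPKM in WT. On chromosome 4 (192992879 to 192995454) they were 28.8, 29.8 and 32.2 FPKM in o11 against 7.65, 7.28 and 7.42 FPKM in WT. On chromosome 7 (145632804 to 145633485) they were 48.7, 68.4 and 75.2 FPKM in o11 against 6.78, 13.7 and 6.90 FPKM in WT. The chromosome 4 locus had the tightest values of these, with a coefficient of variation of 5.65% in o11 and 2.51% in WT. The remaining one, on chromosome 6 (164972789 to 164978045), had 68.7, 59.1 and 73.7 FPKM in o11 against 18.1, 15.3 and 12.2 FPKM in WT.

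Ranks 8 to 10 by separation show how differently the libraries behaved at a like ratio. A locus on chromosome 2 (190149382 to 190151399) had 89.7, 112 and 482 FPKM in o11 against 10.7, 18.9 and 30.5 FPKM in WT. Its fold of the means, 11.4, was the largest of the 41, and replicate 3 was its highest library in both genotypes. A locus on chromosome 4 (171946554 to 171955233) had 27.6, 30.7 and 27.8 FPKM in o11 against 9.80, 9.46 and 9.58 FPKM in WT, a 2.98-fold difference with hardly any spread. A locus on chromosome 7 (133410047 to 133410509) had 47.5, 76.7 and 177.6 FPKM in o11 against 7.89, 16.9 and 16.1 FPKM in WT, and was the shortest member, with an interval of 462 bases.

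**Figure D2:**
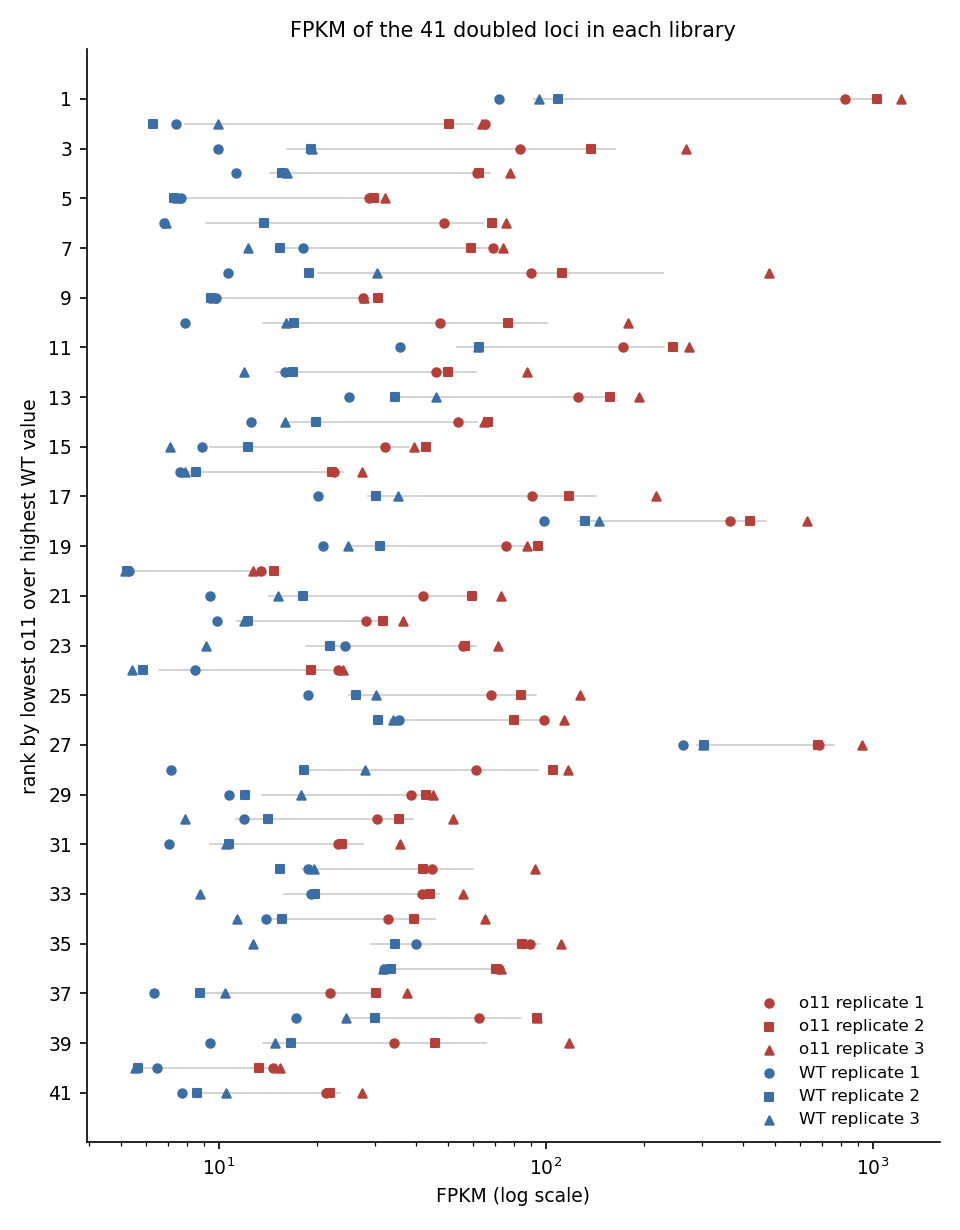
FPKM (log axis) of each of the 41 doubled loci in every library, 1 row per locus in the order of the separation ratio; red symbols are o11 and blue symbols WT libraries, the symbol shape gives the replicate, and the grey line joins the genotype means. Every red symbol lies right of every blue one because the rule requires it; the distance between them and the spread within a colour differ from row to row.

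The chromosome 4 locus from 171946554 to 171955233 is the longest member (8679 bases) and the only one that shares its interval with another row of the files. That second row had 8.26, 6.66 and 5.49 FPKM in o11 against 8.71, 5.97 and 6.41 FPKM in WT, a fold of 0.968. The higher level was thus found in 1 of the 2 rows. The sources used here do not say how reads were divided between them, so the value of either row is uncertain.

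In o11 the 41 loci ran from a mean of 13.7 to 1024 FPKM (median 61.5), against 5.24 to 289 FPKM in WT (median 14.9). Together they held 0.5003%, 0.550% and 0.642% of all FPKM in the o11 libraries against 0.116%, 0.131% and 0.113% in the WT libraries. Much of this sum came from few loci, since the 3 most abundant in o11 made up 45.3% of the members' summed o11 mean.

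The member highest in WT was on chromosome 3 (156404565 to 156407511), with 682, 677 and 927 FPKM in o11 against 262, 303 and 302 FPKM in WT. It also ranked next after the chromosome 6 locus in o11, and its fold of 2.63 was among the smaller ones. The next in both orders, on chromosome 9 (57432620 to 57435925), had 366, 421 and 629 FPKM in o11 against 98.6, 131 and 145 FPKM in WT. These were the only 2 members with a WT mean of 100 FPKM or more, and 866 eligible loci had such a mean.

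After the chromosome 6 locus, the remaining places among the 5 highest in WT were taken by a locus on chromosome 4 (3214646 to 3216558) and a locus on chromosome 1 (8107799 to 8109879). The chromosome 4 locus had 172, 244 and 273 FPKM in o11 against 35.9, 62.2 and 62.1 FPKM in WT, 4.30-fold higher. The chromosome 1 locus had 125.0, 157 and 193 FPKM in o11 against 24.9, 34.6 and 46.0 FPKM in WT, 4.49-fold higher. In both, replicate 1 was the lowest library of each genotype, so that same-numbered folds stayed between 3.93 and 5.02.

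The fold of the means had a median of 3.52 over the 41 loci and ran from 2.21 to 11.4. It was at least 3 for 30 of them, at least 5 for 7 and at least 10 for 3. Taken within same-numbered pairs, the median fold was 3.63 in pair 1, 3.21 in pair 2 and 4.40 in pair 3. In each pair alone the smallest member fold was over 2 (2.19, 2.10 and 2.29), as the rule requires. Of the 41, 21 had at least a 3-fold difference in all 3 pairs.

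The pairs did not contribute evenly. Pair 3 gave the largest fold for 30 of the 41 loci (73.2%, against 36.2% of all eligible loci), and pair 2 the smallest for 24 (58.5%, against 30.2% of eligible loci). The highest o11 library was replicate 3 for 35 members (85.4%, against 47.6% of eligible loci), and the lowest was replicate 1 for 30 (73.2%, against 37.1%). In WT the highest library was replicate 2 for 19 members (46.3%, against 19.1% of eligible loci), replicate 3 for 13 (31.7%, against 46.5%) and replicate 1 for 9 (22.0%, against 34.4%). The lowest WT library was replicate 1 for 24 members (58.5%, against 37.0% of eligible loci). The rule used the highest WT and the lowest o11 value, so these shares may be shaped by the choice of the loci. Replicate 1 differs from the others in the tools listed for it, and both replicate 3 libraries stood apart on the main axis of variation. The part of either difference in these orders was not tested.

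For 14 members the fold of pair 3 was at least 1.5 times that of both other pairs, and for no member did pair 1 or pair 2 stand out in this way. These counts were not made over all eligible loci, so they are not read as a trait of the members. Among loci eligible on the other 2 pairs, 3.41%, 1.46% and 5.5% were at least 2-fold higher in o11 in pairs 1, 2 and 3. In 8 of the 14, WT replicate 3 was the lowest WT library, at 0.340 to 0.768 of the mean of WT replicates 1 and 2, while o11 replicate 3 was at 1.05 to 1.81 of the mean of o11 replicates 1 and 2. The widest spread between pairs was of this kind. A locus on chromosome 10 (15552598 to 15556258) had 89.3, 84.4 and 111 FPKM in o11 against 40.1, 34.6 and 12.7 FPKM in WT, with folds of 2.22, 2.44 and 8.73 in pairs 1, 2 and 3. On chromosome 1 (47153842 to 47154857) the folds were 2.30, 2.58 and 7.85, with WT values of 24.2, 21.9 and 9.11 FPKM. On chromosome 8 (29150438 to 29152381) they were 2.19, 2.25 and 6.37, with WT values of 19.1, 19.7 and 8.73 FPKM. In these 3 loci WT replicate 3 was the lowest library by a wide margin, and the o11 libraries lay closer together than the WT libraries.

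At the other end were loci whose pairs gave nearly the same fold. On chromosome 8 (169675556 to 169680745) the folds were 3.45, 3.46 and 3.62, although the level differed between replicates in both genotypes, with 21.8, 30.2 and 37.7 FPKM in o11 against 6.32, 8.72 and 10.4 FPKM in WT. On chromosome 2 (175732182 to 175737110) the folds were 2.76, 2.55 and 2.61, with 21.3, 21.9 and 27.4 FPKM in o11 against 7.70, 8.58 and 10.5 FPKM in WT. On chromosome 1 (275157704 to 275161519) they were 2.24, 2.10 and 2.29, with 71.7, 70.3 and 72.9 FPKM in o11 against 32.0, 33.5 and 31.8 FPKM in WT. The chromosome 1 locus had the smallest mean fold of the 41 and, in o11, the smallest coefficient of variation (1.81%).

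Counted over all members, the highest library was under 1.2 times the lowest for 6 loci in o11 and for 8 loci in WT, and for 5 loci in both genotypes. It was 2 times the lowest or more for 6 loci in o11 and for 7 in WT. The locus on chromosome 10 from 5225394 to 5228033 is an example of a wide o11 group, with 34.2, 45.9 and 117 FPKM in o11 against 9.37, 16.6 and 14.9 FPKM in WT. The largest pair fold was a median of 1.37 times the smallest over the 41 loci, against 1.24 over all eligible loci, and under 1.5 times for 23 of the 41 loci.

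**Figure D3:**
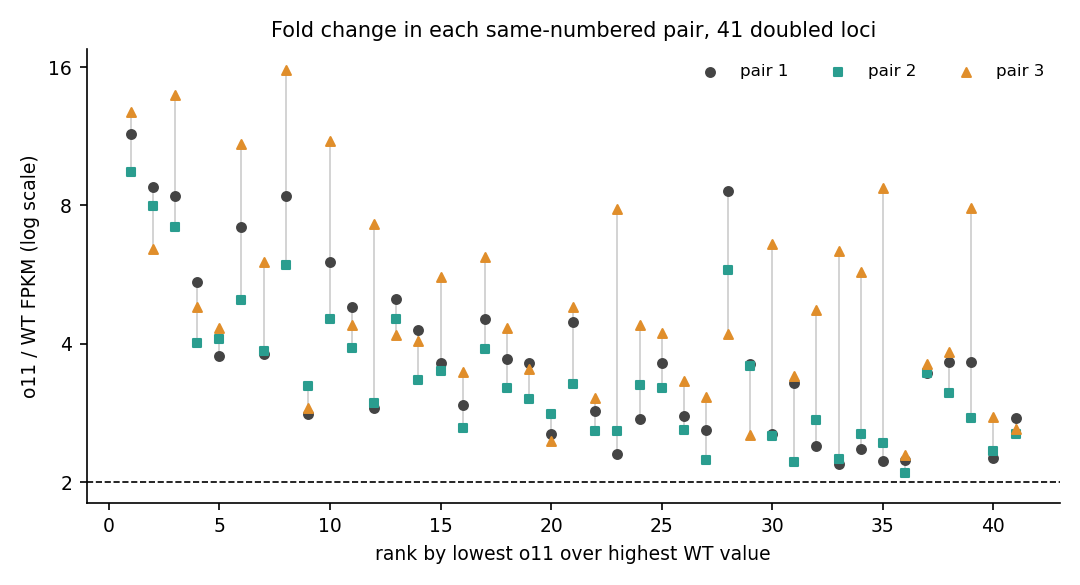
Ratio of o11 to WT FPKM (log axis) in replicate pairs 1, 2 and 3 for the 41 doubled loci, in the order of the separation ratio; the grey line spans the 3 pairs and the dashed line marks a ratio of 2. Pair 3 (triangles) is the highest symbol for 30 loci, and at 14 of them it stands at least 1.5 times above both other pairs.

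In the fit across all 22314 loci that passed a filter of 1 FPKM in 3 libraries (limma, adjusted p under 0.05), 25 of the 41 loci were among the 0.52% called higher in o11, and all 41 were among the 9.83% called higher with the replicate number as a block. The rule used the same contrast on the same values, so these counts follow from the choice and nothing is read from them.

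Loci were also chosen anew, with the same 2 conditions applied to 2 replicate pairs, and their fold was taken in the pair left out. The 41 members fall in every such list, with a fold over 2 fixed by the rule. The counts, shares and medians below include them and are raised by them, so they are no independent support for the 41. Chosen on pairs 2 and 3, for which the same tools are listed, 98 loci had a median fold of 3.09 in pair 1. Of these, 98 were above 1 and 94 (95.9%) at least 2-fold higher in o11, against 3.41% of the 13382 loci eligible on those pairs. Chosen on pairs 1 and 3, 67 loci had a median fold of 2.59 in pair 2, with 67 above 1 and 57 (85.1%) at least 2-fold, against 1.46% of 12890 eligible loci. Chosen on pairs 1 and 2, 76 loci had a median fold of 3.59 in pair 3, with 75 above 1 and 70 (92.1%) at least 2-fold, against 5.5% of 13734 eligible loci.

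The median eligible locus had a fold of 0.968, 0.954 and 0.949 in pairs 1, 2 and 3. In the pairs that chose the loci the median folds had been 3.39, 3.65 and 3.17, so the fold was smaller in the pair left out where that was pair 1 or pair 2, and larger where it was pair 3. The single locus that was not higher in the pair left out lay on chromosome 3 (181803010 to 181804893). It had 34.4, 31.0 and 16.6 FPKM in o11 against 11.2, 11.3 and 20.5 FPKM in WT, with a fold of 0.810 in pair 3. A pair left out holds 1 library per genotype and allows no test. All 41 members are in each of the 3 lists, and their fold in the pair left out had to be over 2.

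**Figure D4:**
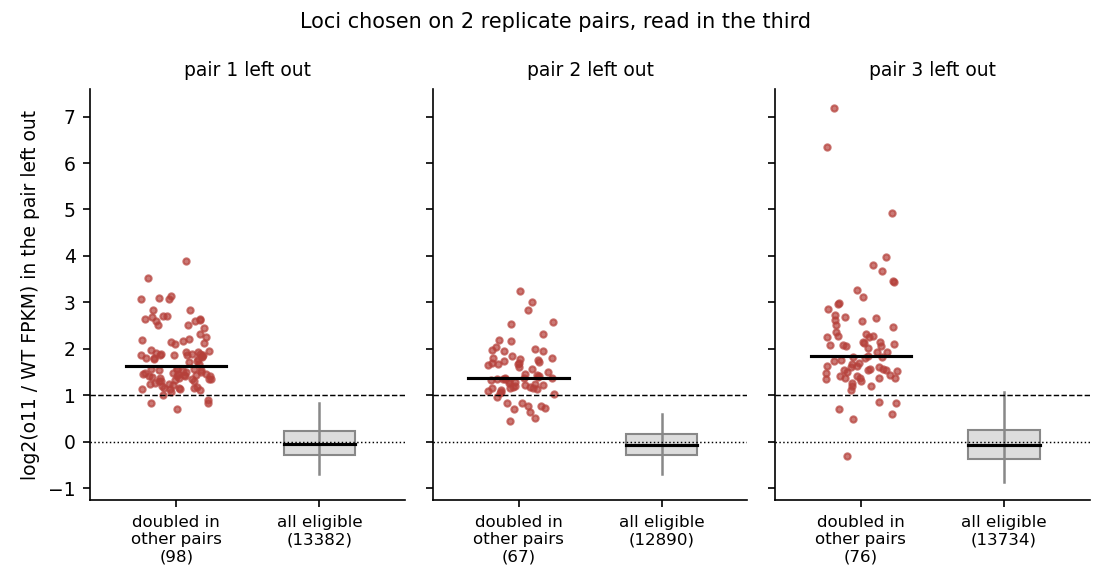
Log2 ratio of o11 to WT FPKM in the replicate pair that was left out, for the loci doubled in the other 2 pairs (red points, line at the median) and for all loci eligible on those pairs (box from the 25th to the 75th percentile with the median, whiskers from the 5th to the 95th); the dashed line is a 2-fold difference and the dotted line no difference. Of 98, 67 and 76 loci, 94, 57 and 70 lie on or above the dashed line with pair 1, 2 or 3 left out. The 41 members are among these in each panel, placed there by the rule.

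Below 50 FPKM of WT mean, the share of eligible loci that were members was larger at lower WT levels. Between 5 and 10 FPKM of WT mean, 12 of 2360 eligible loci were members (0.508%), between 10 and 20 FPKM 16 of 4128 (0.388%), between 20 and 50 FPKM 9 of 3989 (0.226%), between 50 and 100 FPKM 2 of 1334 (0.1499%) and between 100 and 500 FPKM 2 of 866 (0.231%). The last 2 classes hold too few members to order them.

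The members were also short. Their intervals on the genome, introns included, had a median of 2361 bases, against 4417 bases for all eligible loci and 3754 bases for the 47 loci at least halved in o11. A length from 1000 to under 2000 bases was found for 13 members, 1.02% of the 1276 eligible loci of that length. From 2000 to under 4000 bases the share was 0.465% (17 of 3653), from 4000 to under 8000 bases 0.156% (7 of 4478), and at 8000 bases or more 0.0381% (1 of 2628). Under 1000 bases it was 0.467% (3 of 642). These shares are descriptive, and WT level and length were not separated.

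All 41 loci lay on the 10 chromosomes, and none on scaffolds or the plastid or mitochondrial genome. Of the 12677 eligible loci, 12618 lay on these chromosomes, so the absence of members elsewhere says little. Every chromosome held between 2 and 8 members. Relative to its eligible loci, chromosome 10 had the largest share (6 of 818, 0.733%), followed by chromosome 7 (5 of 1008, 0.496%) and chromosome 1 (8 of 2013, 0.397%). Chromosome 3 had the smallest (2 of 1346, 0.149%), and the share over all eligible loci was 0.323%. With 2 to 8 members each, the chromosomes hold too few members to order them.

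No 2 members were next to each other along a chromosome. This held among all loci of the files and among the 22259 with a mean of at least 1 FPKM over the 6 libraries. Only 41 of so many loci were members, so the absence is not read as a result about clustering. Neighbours with WT values under 5 FPKM could not be members. Some of these had separation ratios over 2 (2.65, 2.43, 2.19 and 2.02, at loci named below). The closest 2 members lay 196 kb apart on chromosome 10, from 131922230 to 131924319 and from 132120549 to 132121962, with 6 expressed loci between them. The first of these had 53.7, 66.3 and 64.6 FPKM in o11 against 12.5, 19.8 and 15.95 FPKM in WT, a range close to that of the other. At none of the 6 loci between them did the o11 values lie above the WT values without overlap. Over all expressed loci 9.8% showed this, so its absence among 6 is not read as a result. One of the 6, from 132115901 to 132117377 and 3.17 kb from the nearer member, had 17.5, 24.5 and 14.6 FPKM in o11 against 16.4, 22.2 and 0.216 FPKM in WT.

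A second close pair lay 316 kb apart on chromosome 1, from 180333581 to 180335486 and from 180651610 to 180653986. The first had 90.6, 118 and 218 FPKM in o11 against 20.04, 30.2 and 35.2 FPKM in WT, and the second 32.8, 39.6 and 65.0 FPKM in o11 against 13.9, 15.6 and 11.3 FPKM in WT. Of the 7 expressed rows between them 1 lay higher in o11 without overlap, the one next to the second member. The share over all expressed loci was 9.8%, and 7 rows are too few to set against it. All other neighbouring members were at least 1.64 Mb apart.

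The 2 expressed loci nearest to each member, 1 on either side, gave 82 neighbours at a median gap of 53.5 kb, with the second row on the chromosome 4 interval named above left out. None of the 82 overlapped its member. All 3 o11 values lay above all 3 WT values for 15 neighbours (18.3%), where 9.8% of the 22259 expressed loci showed this, and below them for 12 (14.6%), where 11.6% did. Their median fold was 1.07 against 0.994 over all expressed loci. A fold of the means of at least 2 was found for 9 of the 82 (10.98%), against 5.44% of expressed loci. Neighbours higher in each same-numbered pair numbered 33 (40.2%), where 29.3% of expressed loci were. For 28 members neither neighbour was higher without overlap, for 11 members 1 was, and for 2 members both were.

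The neighbours that were highest in o11 by fold mostly had low levels. The member on chromosome 2 from 107916118 to 107918479, with 46.2, 50.2 and 87.2 FPKM in o11 against 15.9, 16.9 and 12.0 FPKM in WT, had such a locus on each side. The locus 90.7 kb to its left (107824363 to 107825462) had 6.33, 8.70 and 14.2 FPKM in o11 against 1.49, 2.88 and 0 FPKM in WT. The one 26.9 kb to its right (107945367 to 107946731) had 3.46, 3.74 and 4.64 FPKM in o11 against 1.31, 1.28 and 0 FPKM in WT. In both, WT replicate 3 was listed at 0, which can be a failed estimate, and the lowest o11 value was over 2 times the highest WT value.

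The member on chromosome 2 from 234780859 to 234781900 had 61.2, 105 and 117 FPKM in o11 against 7.14, 18.2 and 27.9 FPKM in WT. A locus only 0.223 kb from it (234782123 to 234783079) had 1.58, 4.0 and 5.33 FPKM in o11 against 0.400, 0.647 and 0.597 FPKM in WT, 6.63-fold higher. At so small a gap, reads of one transcript could be counted at both intervals, and this was not tested. On chromosome 1, the locus from 180631145 to 180634928, 16.7 kb from a member, had 5.17, 10.05 and 11.4 FPKM in o11 against 2.42, 2.56 and 1.94 FPKM in WT.

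The most abundant of these neighbours was on chromosome 10 (5383243 to 5386122), 155 kb to the right of the member from 5225394 to 5228033. It had 18.4, 24.9 and 50.8 FPKM in o11 against 2.60, 5.17 and 10.9 FPKM in WT, a 5.04-fold difference. On the other side of the same member, 107 kb away, a locus (5116325 to 5118272) had 0.688, 1.19 and 2.10 FPKM in o11 against 4.13, 5.88 and 12.3 FPKM in WT, the lowest fold (0.178) of all 82 neighbours. Loci on either side of 1 member thus differed in opposite directions. On chromosome 9, the locus from 117079358 to 117083079, 96.5 kb from the member with the second widest separation, had 3.29, 4.79 and 5.53 FPKM in o11 against 0.753, 1.41 and 2.12 FPKM in WT.

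**Figure D5:**
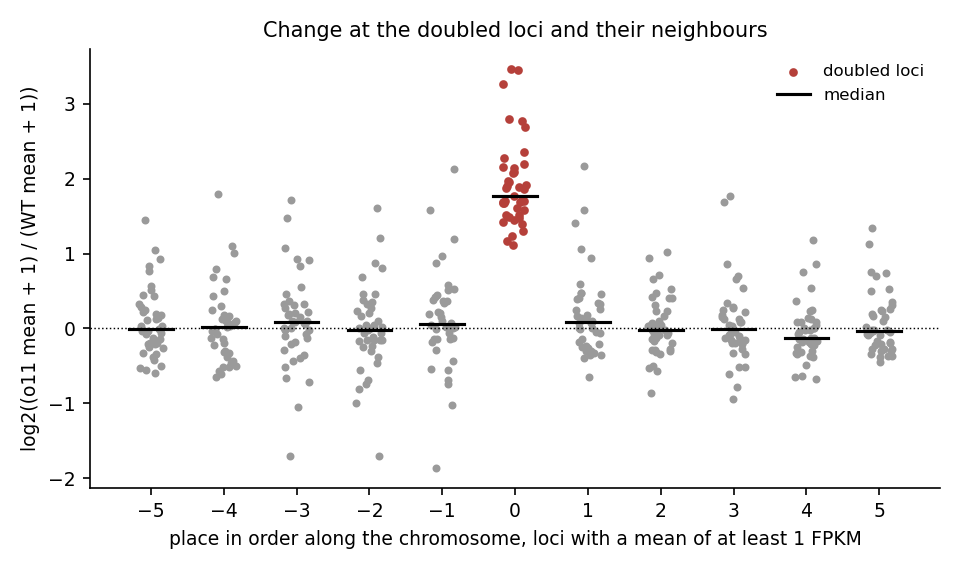
Log2 ratio of mean o11 FPKM + 1 to mean WT FPKM + 1 at the 41 doubled loci (red, place 0) and at the expressed loci up to 5 places away on either side (grey), with black lines at the medians. The medians of the 10 neighbouring places lie between -0.12 and 0.09, with single neighbours above 2 directly beside a member.

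Farther out, the medians of the log2 ratio at the first 5 places on either side ran from -0.12 to 0.09. The loci at these places gave 409 entries, of which 54 (13.2%) lay higher in o11 without overlap, against 9.8% of expressed loci. Some loci between the members of a close pair were entered for both members. Next to a member the share was 24.4% on the right (10 of 41) and 12.5% on the left (5 of 40, since that second row takes 1 place), and at the fifth place 9.76% and 14.6%.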

How the data were processed

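The authors deposited 1 FPKM value per locus and library, per the file headers. The submitters' processing notes name Bowtie 0.12.2 with both replicate 1 libraries, TopHat and Cufflinks with the others, and the B73 RefGen_v3 build with all. The sources used here do not give any further scaling between libraries, the annotation, the strand setting or whether starts count from 0 or 1. The number of fragments per library is unknown. The most frequent step between low values (under 0.3 FPKM) gave depths of 0.883 to 1.30 for the other 5 libraries relative to WT replicate 1, a step met by 340 to 676 of the 2591 to 3240 low values compared. FPKM sums ran from 784761 to 1072271. An interval shared with another row occurred for 1879 of the 32666 rows.

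Ratios were taken on FPKM as deposited, with no pseudocount, in Python 3.11.15 and pandas 2.3.3. Neighbours were the next loci by start with a mean of at least 1 FPKM, without rows on the member's own interval. The fit across loci used limma 3.58.1 in R 4.3.3 on log2(FPKM + 1). It had a mean-variance trend and Benjamini-Hochberg adjustment over 22314 loci, and was tested on simulated data. The simulated noise had the same spread at every locus and no deviation shared between same-numbered libraries. The test therefore does not cover the shared deviations described next. Same-numbered o11 and WT libraries deviated together from their genotype means (Pearson's r across loci 0.75, 0.67 and 0.76), and the numbers were treated as pairs. This rests on the data and not on the labels. Alternatives were other limits, scalings, libraries left out and pairs in place of groups.

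The members, and the rules for which loci are named, were chosen with earlier results of these data known. Named loci are those with the 10 widest separations, the highest levels, the limits of the rule, the largest and smallest spread between pairs, the longest and shortest interval and the neighbours with the largest folds, and members next to one another, of which there were none. The 2 close pairs, the locus lower in the pair left out and the lowest neighbour were named after their values were seen.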

Additional observations from a re-analysis of the deposited data

How the results depend on the processing

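The number of doubled loci depended on the limits and libraries used. It was 123 and 7 with a ratio of at least 1.5 or 3, 79 and 20 with WT of at least 2 or 10 FPKM, 69 with equal FPKM sums (37 of the 41 among them), 98 when replicate 1 was dropped from both genotypes and 76 when replicate 3 was. In the paired form (replicate block), with o11 at least 2 times WT in each same-numbered pair, it was 113. All 41 are among these because a locus that meets the main rule must meet the paired form. Leaving out 1 library gave 42 to 76, with 76 without o11 replicate 1, 67 without WT replicate 2 and 73 without WT replicate 3. Upper-quartile scaling gave 49 loci (40 of the 41) and quantile normalization 56 (38 of the 41). The median fold was 2.67 and 7.02 with a ratio of at least 1.5 or 3 and 3.105 to 3.66 with 1 library left out. The 25 members called by limma became 41 with the replicate block and 0 to 2 with 1 library left out, where limma called 0 to 9 of all tested loci higher (the 2 and the 9 without WT replicate 3) and 1920 to 3206 loci had an unadjusted p under 0.05. Within 200 kb of each other lay 2 members, and 0 to 2 loci were next to another with 1 library left out and the loci chosen anew. The 15 higher neighbours became 33 with the replicate block and 7 (of 40) within 50 kb, and 16 to 24 with 1 library left out, the 24 (29.3%) without WT replicate 3. The share over all expressed loci moved as well, to between 12.1% and 17.3% with 1 library left out (17.3% for the 24). With pair 3 left out, the median fold became 3.0 where the choice used the pairs (replicate block). Added after the data were seen were the drop of replicate 3 from both genotypes and the libraries left out for neighbours. Fewer libraries make the rule easier to meet. Why the other values shifted was not examined, and the cause was not tested.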
